A study of Mus musculus with 10 samples.

Results

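The values of 40 genes for antioxidant defence, glutathione and thioredoxin were followed in interscapular brown adipose tissue (iBAT) of mice lacking cardiolipin synthase in fat cells. These genes were chosen by symbol, and all 40 were found among the 15075 genes of the deposited table. RNA was sequenced from 5 Control and 5 AdCKO mice of the C57BL/6 strain, all 20 weeks old and housed at room temperature, with 1 library per mouse. Both groups carried floxed alleles of Crls1, the gene for cardiolipin synthase. AdCKO mice also carried Cre recombinase under the Adipoq promoter, which is active chiefly in adipocytes and not in the immune and vascular cells of the tissue, while Control mice had no Cre and are labelled wild-type. Whole tissue was used, and lower RNA per cell cannot be told apart from fewer cells of a type in any result given here.

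Cells remove superoxide with superoxide dismutases, and the hydrogen peroxide that forms is removed by catalase, glutathione peroxidases and peroxiredoxins. Glutathione and thioredoxin supply the electrons for these peroxidases and are recharged by reductases that draw on NADPH. Brown adipocytes are packed with mitochondria, where superoxide arises in the respiratory chain and where separate enzymes of each family are imported, whereas many of the cytosolic enzymes are switched on by the transcription factor NRF2 when oxidants or electrophiles disable its repressor KEAP1.

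The units throughout are normalized reads per kb of counted exon, as deposited, so levels can be set against each other between genes. Lists of 5 values run from replicate 1 to 5, and errors after a mean are SDs over the 5 libraries unless named otherwise. Crls1, the gene deleted in adipocytes, was 813 to 1291 in Control libraries and 193 to 249 in AdCKO libraries. All 8 brown adipocyte markers were detected in every library, and limma called 5 of them lower (Otop1, Prdm16, Cidea, Cox7a1 and Ucp1) and 0 higher, against 4 or 5 lower and 1 or 2 higher under the other scalings described further on. The 3 not called had log2 fold changes of 0.90 (Dio2), -0.54 (Ppara) and -0.06 (Elovl3), and these 3 and Ucp1 were named after their values were seen. Ucp1 averaged 36912 ± 8713 in Control and 14069 ± 4478 in AdCKO, and with Cidea at 18170.3 ± 1678 in Control and 6207 ± 2711 in AdCKO it made up most of the summed level, which was 48489 to 71839.7 in Control and 15261 to 34479.8 in AdCKO. The summed level of 9 macrophage markers was 458 to 1340.0 in Control and 6315 to 8385 in AdCKO, and that of 6 fibroblast markers was 927 to 1214 and 3739.8 to 5279. AdCKO replicates 1, 2 and 4 stood apart by skeletal muscle RNA, with summed levels of 5375, 21203 and 8109 over 8 markers, against 94.8 to 139 in the other libraries. The sum of 8 lymphocyte markers was 247 in AdCKO replicate 1 and 38.5 to 71.5 in the other libraries. That of 8 general adipocyte markers, of which limma called 5 lower and 2 higher, was 177413 to 206356 in Control and 138426 to 155188 in AdCKO. The part of these cell types in the results was not tested.

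Of the 40 genes, 9 rose and 19 fell in AdCKO by limma (adjusted p under 0.01), and 12 did not pass. Limma fits a linear model to log2(value + 1) of each gene and moderates its spread across all genes. Among all 11244 genes tested, 25.6% were higher and 28.0% were lower. The median log2 fold change of the 40 genes was -0.30, and that of all tested genes was -0.011, with quartiles of -0.37 and 0.39. For 9 of the 40 genes all AdCKO libraries were above all Control libraries, and for 18 all were below, against 24.5% and 26.4% of all tested genes. The 9 genes that rose were Nqo1, Gss, Gpx7, Gsta3, Gsto1, Prdx1, Prdx6, Srxn1 and Txnrd1, with log2 fold changes from 0.35 to 1.78. The 19 genes that fell came from every role except glutathione synthesis and quinone reduction, with log2 fold changes from -2.15 to -0.48.

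**Figure D1:**
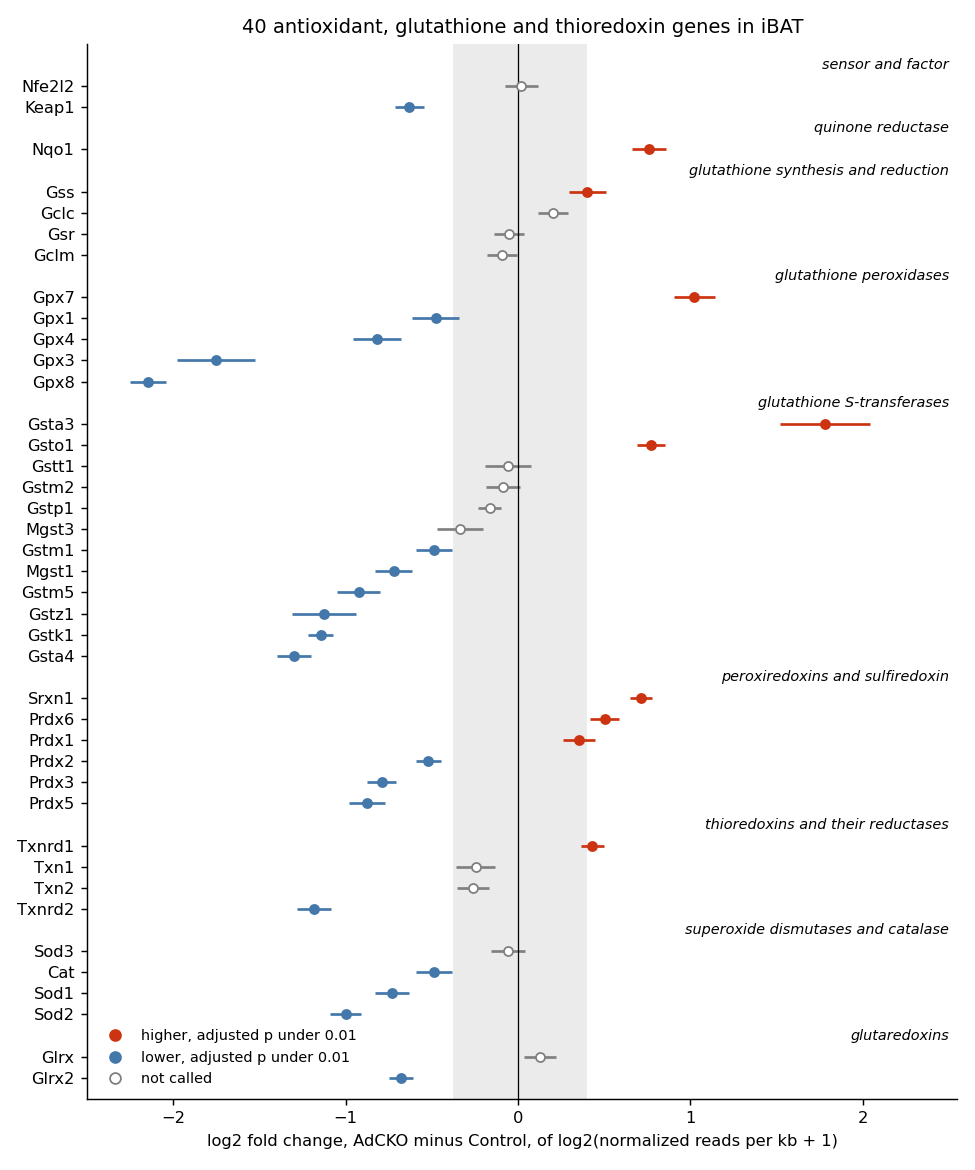
Log2 fold change (AdCKO minus Control, x axis, points) with its standard error (bars) for the 40 genes, grouped by role, where the grey band marks the quartiles of all tested genes from -0.37 to 0.39. Gsta3 at 1.78 and Gpx8 at -2.15 lie farthest out, and most roles hold points on both sides of 0.

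These counts depended on how the libraries were scaled, and the summed normalized reads were lower in AdCKO (5419800 to 5843024) than in Control (7615403 to 8171138). Setting the same total in every library moved the median of all genes to 0.46, and then 17 of the 40 genes were higher and 10 lower, against 60.6% and 9.77% of all tested genes. Quantile normalization moved that median to -0.08 and gave 10 higher and 12 lower, against 22.5% and 31.1%. All 9 genes that rose passed under all 3 scalings. Of the 19 that fell, 10 passed under all 3, namely Gpx3, Gpx8, Gsta4, Gstm5, Gstk1, Gstz1, Prdx3, Prdx5, Txnrd2 and Sod2. Relative to the median of all genes, 16 of the 19 stayed below it under each scaling, and Gpx1, Mgst1 and Cat did not.

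**Figure D2:**
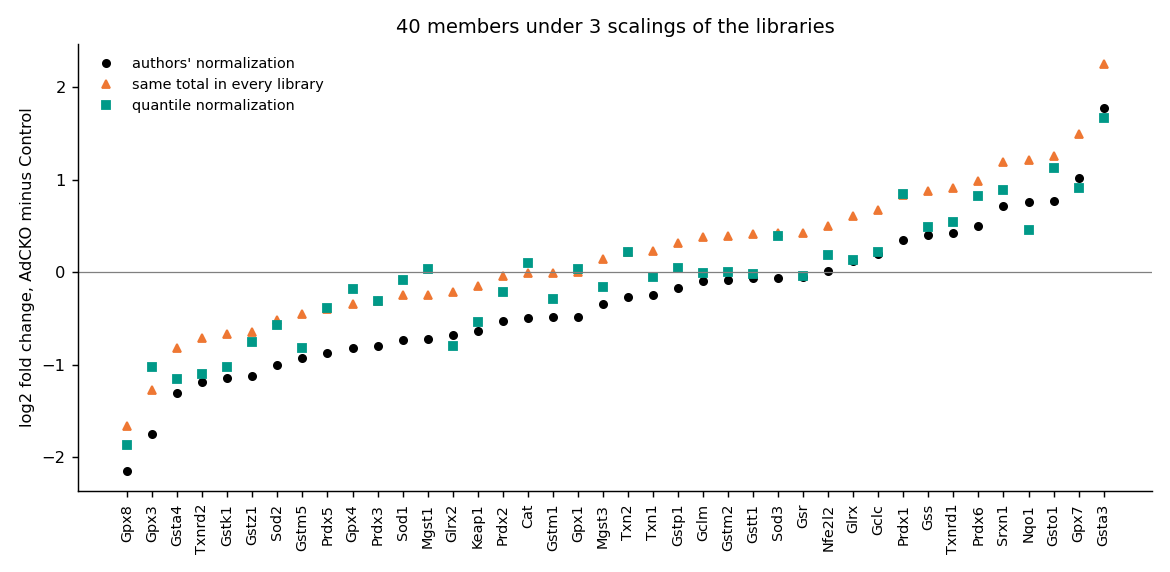
Log2 fold change (AdCKO minus Control, y axis) of each of the 40 genes (x axis, ordered by the value under the authors' normalization) under 3 scalings of the libraries. Circles are the authors' normalization, triangles the same total in every library and squares quantile normalization, and the points of Gpx8, Gpx3 and Gsta4 at the left stay below 0 while the 9 genes that rose, at the right, stay above it.

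KEAP1 senses oxidants, and NRF2 is the factor it restrains. Nfe2l2 (NM_010902, chr2:75513576-75542698, minus strand of mm9), which encodes NRF2, stood at 462, 335, 334, 405 and 419.8 in Control and 367, 385, 434, 373 and 412 in AdCKO. Its groups overlapped and the difference was not called (log2 fold change 0.02 with SE 0.10 and limma adjusted p = 0.87). With the same total in every library Nfe2l2 was called higher (log2 fold change 0.50, limma adjusted p = 0.000624), where the median of all genes was 0.46. Keap1 (NM_001110306, chr9:21034174-21043776, minus strand), whose product holds NRF2 for degradation, stood at 205, 247, 227, 237 and 241 in Control and 156, 157, 121, 155 and 159 in AdCKO. All 5 AdCKO values lay below the Control values, and AdCKO replicate 3 was the lowest. Keap1 fell (log2 fold change -0.63 with SE 0.086 and limma adjusted p = 4.13e-05), although with the same total in every library its log2 fold change was -0.15 and no longer passed (limma adjusted p = 0.0891).

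Of 8 genes well known to be induced by NRF2, 4 rose in AdCKO, namely Nqo1, Srxn1, Txnrd1 and Prdx1. Limma called none of the 8 lower, while among all tested genes 25.6% were higher and 28.0% lower. At an unadjusted p under 0.05, 5 were higher and 0 lower, a cut that 7708 of all 11244 tested genes passed in either direction. Nqo1 (NM_008706, chr8:109912125-109927105, minus strand), a quinone reductase and the least abundant of the 40 genes, stood at 18.7, 14.9, 17.7, 15.8 and 15.4 in Control and 27.9, 25.4, 31.3, 32.6 and 26.1 in AdCKO. The groups did not overlap, and the mean was 1.74-fold higher in AdCKO (log2 fold change 0.76 with SE 0.10 and limma adjusted p = 2.46e-05). Srxn1 (NM_029688, chr2:151931260-151937112, plus strand), whose product restores over-oxidised peroxiredoxins, stood at 327, 339, 317, 319.6 and 336 in Control and 545, 531, 509, 599 and 510.4 in AdCKO. Both groups were tight and well apart (log2 fold change 0.71 with SE 0.062 and limma adjusted p = 9.56e-07). Txnrd1 (NM_001042523, chr10:82296696-82360469, plus strand), the cytosolic thioredoxin reductase, stood at 187, 212, 208, 196 and 215 in Control and 256, 282, 306, 264 and 268 in AdCKO. It rose 1.35-fold with no overlap (log2 fold change 0.43 with SE 0.068 and limma adjusted p = 0.00013).

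Prdx1 (NM_011034, chr4:116358204-116372605, plus strand), an abundant cytosolic peroxiredoxin, stood at 1691, 1801, 1677, 1674 and 1782 in Control and 1926, 2283, 2667, 2308 and 1920.5 in AdCKO. AdCKO replicates 1 and 5 were close above the highest Control library and AdCKO replicate 3 was the highest of all. It rose 1.29-fold (log2 fold change 0.35 with SE 0.094 and limma adjusted p = 0.00557), and the call was lost on leaving out any of Control replicate 1, 3, 4 or 5 or AdCKO replicate 2, 3 or 4, with limma adjusted p between 0.0105 and 0.0147. Part of its sequence is shared with another locus, Gm7204, which holds 10.4% of its stretches of 40 bases.

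The other NRF2-inducible genes overlapped between the groups and were not called. Gclc and Gclm encode the catalytic and modifier subunits of glutamate-cysteine ligase, the rate-limiting step of glutathione synthesis. Gclc (NM_010295, chr9:77602342-77642296, plus strand) stood at 105, 93.7, 104, 91.4 and 84.9 in Control and 105, 113, 110.4, 129 and 96.6 in AdCKO (log2 fold change 0.20 with SE 0.088 and limma adjusted p = 0.0595). Gclm (NM_008129, chr3:121948475-121970133, plus strand) stood at 187, 180.2, 180.2, 229 and 219 in Control and 171, 185, 189.5, 209.8 and 175 in AdCKO (log2 fold change -0.092 with SE 0.087 and limma adjusted p = 0.371). Their log2 fold changes had opposite signs and neither passed. Gsr (NM_010344, chr8:34763710-34808634, plus strand), the reductase that recycles oxidised glutathione, stood at 98.00, 97.3, 109.7, 115 and 124 in Control and 94.05, 107, 108, 118 and 96.03 in AdCKO (log2 fold change -0.054 with SE 0.087 and limma adjusted p = 0.607). Txn1 (NM_011660, chr4:57956245-57969283, minus strand), the cytosolic thioredoxin, stood at 452, 582, 639, 594 and 534 in Control and 425, 527, 501, 525 and 387 in AdCKO. It was not called (log2 fold change -0.24 with SE 0.11 and limma adjusted p = 0.0733), and AdCKO replicate 5 was the lowest library. With the same total in every library Gclc, Gclm and Gsr were called higher, so that 7 of the 8 passed, where 60.6% of all tested genes were higher. Quantile normalization gave 4 of 8, where 22.5% of all were higher.

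Gss (NM_001291111, chr2:155388917-155418546, minus strand), glutathione synthetase, which completes the tripeptide, stood at 143, 188, 145, 129 and 186 in Control and 189, 209, 214, 202 and 222 in AdCKO. The lowest AdCKO value was just above the highest Control value. Gss rose 1.31-fold (log2 fold change 0.40 with SE 0.11 and limma adjusted p = 0.00536), and the call was lost on leaving out any of Control replicate 1, 3 or 4 or AdCKO replicate 2, 3, 4 or 5, with limma adjusted p between 0.0101 and 0.015. Its exons share 229 bases with Acss2 on the other strand, a gene that fell (log2 fold change -2.29), and without stated strand the reads of the pair cannot be told apart.

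The mitochondrial genes were mostly lower. Of Sod2, Prdx3, Prdx5, Txn2 and Txnrd2, 4 fell and limma called none higher, against 28.0% of all tested genes lower and 25.6% higher. With an unadjusted p under 0.05, which 7708 of all 11244 tested genes had in either direction, 5 were lower and 0 higher. Sod2 (NM_013671, chr17:13200705-13210985, plus strand), the manganese superoxide dismutase of the matrix, stood at 2053, 2377, 2061, 2171 and 2274 in Control and 1013, 1064, 1174, 949 and 1288 in AdCKO. The mean in AdCKO was 50.2% of Control and the groups were far apart (log2 fold change -1.001 with SE 0.091 and limma adjusted p = 1.33e-06). Prdx3 (NM_007452, chr19:60939969-60950441, minus strand), the main matrix peroxiredoxin, stood at 2194, 2545, 2427, 2309 and 2335 in Control and 1276, 1342, 1537, 1198 and 1488 in AdCKO. It fell to 57.9% of Control with no overlap (log2 fold change -0.79 with SE 0.084 and limma adjusted p = 4.89e-06).

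Prdx5 (NM_012021, chr19:6981309-6984135, minus strand), a peroxiredoxin of mitochondria, peroxisomes and cytosol, stood at 2502, 3544, 3256, 2889 and 3101 in Control and 1504, 1766, 1609, 1521 and 1913 in AdCKO. Every AdCKO library was below every Control library (log2 fold change -0.88 with SE 0.11 and limma adjusted p = 1.41e-05). Txnrd2 (NM_013711, chr16:18426510-18479166, plus strand), the mitochondrial thioredoxin reductase, stood at 254, 334, 294, 286 and 302 in Control and 123, 109, 128, 129.9 and 157 in AdCKO. It had the largest decrease of the 5, to 43.9% of Control (log2 fold change -1.19 with SE 0.10 and limma adjusted p = 6.99e-07).

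Txn2 (NM_019913, chr15:77745481-77759424, minus strand), the mitochondrial thioredoxin that Txnrd2 recharges, stood at 1969.7, 2469, 2120.5, 2204 and 2319 in Control and 1646, 1858, 2167, 1673 and 1923 in AdCKO. AdCKO replicate 3 reached into the Control range and the difference was not called (log2 fold change -0.26 with SE 0.094 and limma adjusted p = 0.0271). Without AdCKO replicate 3 it passed, at a log2 fold change of -0.32 (limma adjusted p = 0.00826), while both other scalings turned its sign, to 0.22 each. The median of all genes was 0.46 with the same total, above Txn2, and -0.08 with quantile normalization, below it. The same scalings left Sod2, Prdx3, Prdx5 and Txnrd2 lower and called. Adding Glrx2 and Gstk1, whose products are also found in mitochondria, gave 6 of 7 lower, against 28.0% of all tested genes.

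**Figure D3:**
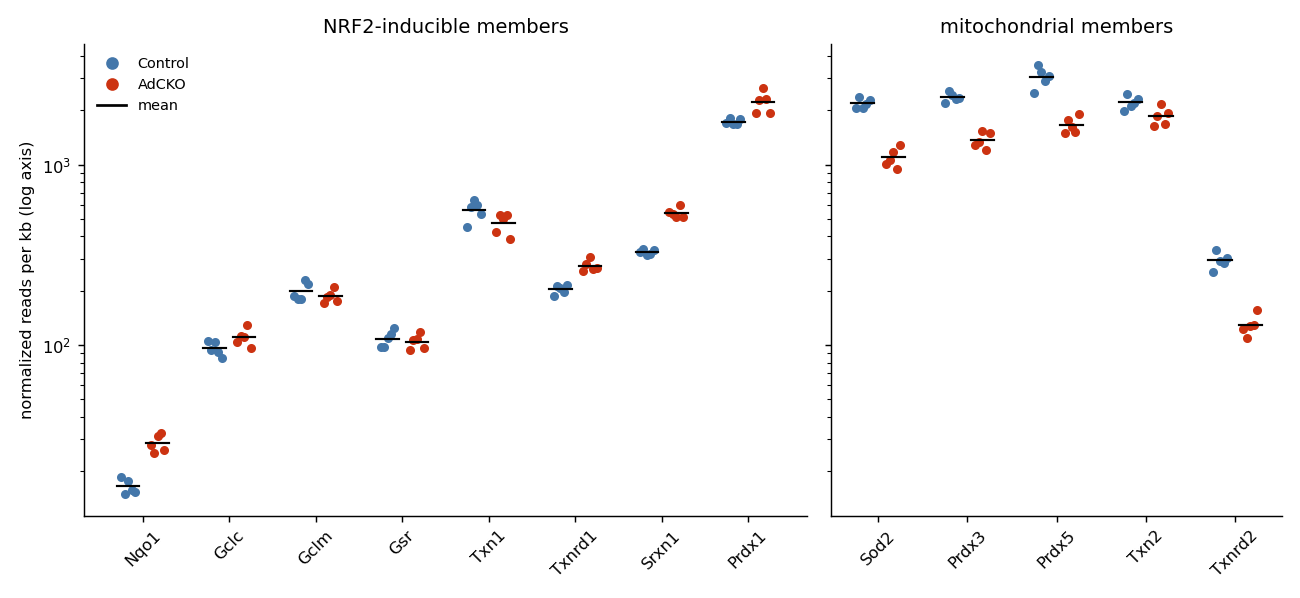
Normalized reads per kb (y axis, log scale) of the 8 NRF2-inducible genes (left) and the 5 mitochondrial genes (right), with a point for each of the 5 Control and 5 AdCKO libraries and a line at each mean. Nqo1, Srxn1, Txnrd1 and Prdx1 lie above Control in every AdCKO library, and Sod2, Prdx3, Prdx5 and Txnrd2 lie below it.

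The mean of log2(value + 1) over the 8 NRF2-inducible genes was 7.58 to 7.66 in the Control libraries and 7.75 to 8.02 in the AdCKO libraries. Over the 5 mitochondrial genes it was 10.5 to 10.8 and 9.69 to 9.998. The NRF2-inducible mean minus the mitochondrial mean, which no scaling by a constant changes beyond the pseudocount, was -3.19 to -2.88 across Control libraries and -2.25 to -1.66 across AdCKO libraries. The library nearest to Control was AdCKO replicate 5. With 5 glutathione S-transferases that NRF2 also induces (Gsta3, Gsta4, Gstm1, Gstm2 and Gstp1) added to the 8, the counts became 5 of 13 higher and 2 of 13 lower, the 2 being Gsta4 and Gstm1. Among all tested genes 25.6% were higher and 28.0% lower. The median log2 fold change was -0.054 over the 13 genes, against 0.28 over the 8.

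Ratios of a gene to a relative whose product is found in mitochondria were taken within each library, which removes any scaling by a constant. Each of the 6 ratios was tested by exact permutation of the libraries (two-sided), whose smallest p for 5 against 5 is 0.0079, and adjusted over the 6 ratios. Several pairs join a gene called higher with a gene called lower in these same libraries. Their tests restate those calls and are not independent of them. Txnrd1 over Txnrd2, the reductases of the cytosol and of mitochondria, had a mean ratio of 0.694 in Control (range 0.635 to 0.737) and 2.14 in AdCKO (range 1.71 to 2.59). The log2 ratio rose by 1.62 ± 0.11 (SE, n = 5 against 5), with an exact p = 0.0079 (adjusted 0.0119), so the mitochondrial form led in every Control library and the cytosolic form in every AdCKO library. Prdx1 over Prdx3 crossed in the same way, with 0.731 in Control (range 0.691 to 0.771) and 1.62 in AdCKO (range 1.29 to 1.93). Its log2 ratio rose by 1.15 ± 0.10 (SE, n = 5 against 5), with an exact p = 0.0079 (adjusted 0.0119). Prdx2, also cytosolic, was not paired, and it fell as Prdx3 did (log2 fold changes of -0.52 and -0.79).

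Prdx6 over Prdx5, whose product is found in peroxisomes and cytosol as well as in mitochondria, rose without crossing, from 0.276 (range 0.235 to 0.328) in Control to 0.717 (range 0.533 to 0.832) in AdCKO, a log2 difference of 1.38 ± 0.14 (SE, n = 5 against 5) with an exact p = 0.0079 (adjusted 0.0119). Glrx over Glrx2, the cytosolic and mitochondrial glutaredoxins, was 1.39 in Control (range 1.22 to 1.59) and 2.45 in AdCKO (range 2.12 to 2.88). That is a log2 difference of 0.82 ± 0.11 (SE, n = 5 against 5), with an exact p = 0.0079 (adjusted 0.0119). None of these 4 ratios overlapped between the groups.

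For the thioredoxins themselves no shift was detected. Txn1 over Txn2 was 0.252 in Control (range 0.229 to 0.302) and 0.255 in AdCKO (range 0.201 to 0.314), a log2 difference of 0.016 ± 0.14 (SE, n = 5 against 5) with an exact p = 0.889. Sod1 over Sod2 was 2.03 in Control (range 1.80 to 2.23) and 2.45 in AdCKO (range 2.01 to 2.84). Its log2 difference of 0.27 ± 0.10 (SE, n = 5 against 5) had an exact p = 0.0397 (adjusted 0.0476) with overlapping groups, and exact p lay between 0.0556 and 0.0714 on leaving out any of Control replicate 1, 2 or 5 or AdCKO replicate 1, 2, 4 or 5. Without the 3 libraries holding muscle RNA it was 0.11 (exact p = 0.429).

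**Figure D4:**
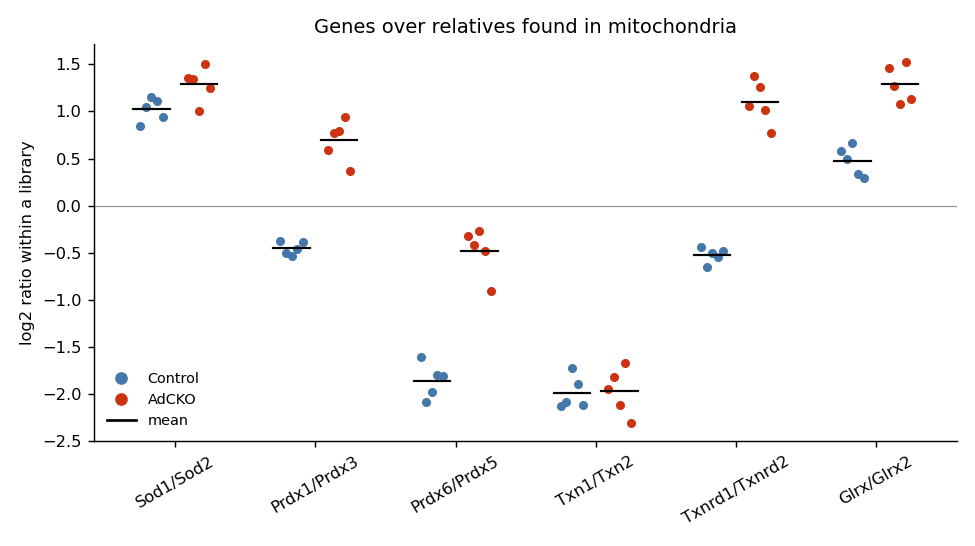
Log2 ratio within a library (y axis) of 6 genes over a relative whose product is found in mitochondria (x axis, Prdx5 acting outside them as well), with a point for each of the 5 Control and 5 AdCKO libraries and a line at each mean. Prdx1/Prdx3 and Txnrd1/Txnrd2 cross from below 0 to above it, and the groups overlap for Txn1/Txn2.

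NRF2 binds antioxidant response elements, and the core letters TGACNNNGC were searched on both strands of the RefSeq promoter windows (GRCm38.p6) of 250 bases before to 50 after each gene start. A window was found for 35 of the 40 genes, and 9 of the 35 held the motif, against 14.0% of all 27025 genes with a window and 17.4% of the 8567 tested ones. It was present in 4 of 6 NRF2-inducible genes and in 0 of the 5 mitochondrial genes. It was present in 4 of 8 genes that rose, 3 of 18 that fell and 2 of 9 that were not called. Those that rose with the motif were Prdx1, Txnrd1, Srxn1 and Gsta3, so these counts share genes with the NRF2-inducible list. Genes of that list may be known as NRF2 targets partly through such elements, so its count is not independent of how it was drawn up. The stretches around the match are shown for the NRF2-inducible genes with a match before the start, for Gsta3, which rose most, and for Sod1, which fell, with the motif in capitals, while the match in Srxn1 lies after its start and is not shown.
Prdx1 (chr4:116685436-116685504): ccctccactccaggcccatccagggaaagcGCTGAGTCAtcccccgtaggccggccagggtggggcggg
Txnrd1 (chr10:82859084-82859152): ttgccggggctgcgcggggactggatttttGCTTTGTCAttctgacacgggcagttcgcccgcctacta
Gclm (chr3:122245393-122245461): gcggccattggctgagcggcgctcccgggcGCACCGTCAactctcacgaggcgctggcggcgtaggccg
Gsta3 (chr1:21240434-21240502): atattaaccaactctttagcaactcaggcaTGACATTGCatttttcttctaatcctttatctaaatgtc
Sod1 (chr16:90220676-90220744): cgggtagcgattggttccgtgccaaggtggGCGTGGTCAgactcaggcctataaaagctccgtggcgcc
All stretches lie on the plus strand of GRCm38.p6. The motif begins 133 bases before the start of Prdx1, 92 before Txnrd1, 134 before Gclm, 121 before Gsta3 and 56 before Sod1. In all but Gsta3 the capitals are the motif read from the opposite strand. These matches are descriptions of letters and not of binding.

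The glutathione peroxidases reduce peroxides and had the highest summed level of all the roles in Control, with Gpx3 the highest of the 40 genes in Control. Their summed level was 19200.1 ± 1977 in Control and 8369 ± 1788 in AdCKO, which is 43.6% of Control. Rescaled to equal library totals, the sum in AdCKO was 60.6% of Control. Gpx3 (NM_008161, chr11:54716356-54723884, plus strand), a secreted peroxidase, stood at 11751, 10313, 10178, 8452 and 8748 in Control and 2257, 2428, 2245, 3021 and 5647 in AdCKO. Every AdCKO value was below Control, and AdCKO replicate 5 was well above the other AdCKO libraries (log2 fold change -1.75 with SE 0.23 and limma adjusted p = 2.58e-05). Its share of the family was 51.5% ± 4.74 in Control and 35.96% ± 7.75 in AdCKO. Gpx8 (NM_027127, chr13:113832971-113836596, minus strand), a peroxidase of the endoplasmic reticulum, stood at 1525, 1652, 1749.8, 1495 and 1170.3 in Control and 354, 302, 339, 335 and 372 in AdCKO. This was the largest decrease among the 40 genes, to 22.4% of Control, with tight AdCKO values (log2 fold change -2.15 with SE 0.10 and limma adjusted p = 1.57e-08). Its gene overlaps Cdc20b on the other strand with no shared exon base.

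Gpx7 (NM_024198, chr4:108072822-108079318, minus strand), also a peroxidase of the endoplasmic reticulum, stood at 34.2, 28.7, 41.4, 43.6 and 37.9 in Control and 82.7, 79.7, 68.96, 85.6 and 64.3 in AdCKO. It rose 2.05-fold with no overlap (log2 fold change 1.02 with SE 0.12 and limma adjusted p = 1.08e-05), so the 2 relatives of that compartment moved in opposite directions, with Gpx8 still the more abundant in AdCKO. Gpx4 (NM_008162, chr10:79516233-79519184, plus strand), which reduces lipid peroxides in membranes, stood at 3559.9, 5666, 4877, 4413 and 4745 in Control and 2261, 2426, 2485, 2599 and 3405 in AdCKO. It fell with no overlap (log2 fold change -0.82 with SE 0.14 and limma adjusted p = 0.000207), but at -0.34 with the same total and -0.18 with quantile normalization it did not pass, nor did it without the 3 libraries holding muscle RNA. Gpx1 (NM_008160, chr9:108241411-108242673, plus strand), the general cytosolic and mitochondrial peroxidase, stood at 2748, 3538, 4045, 2432 and 2758 in Control and 2280.2, 2217, 2058, 2509.9 and 1922 in AdCKO. AdCKO replicate 4 overlapped with Control replicate 4. It was called lower (log2 fold change -0.48 with SE 0.14 and limma adjusted p = 0.00804), but its log2 fold change became 0.04 under quantile normalization, and the call was lost on leaving out any of Control replicate 2, 3 or 5 or AdCKO replicate 1, 2, 3 or 5, with limma adjusted p between 0.0109 and 0.0226.

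**Figure D5:**
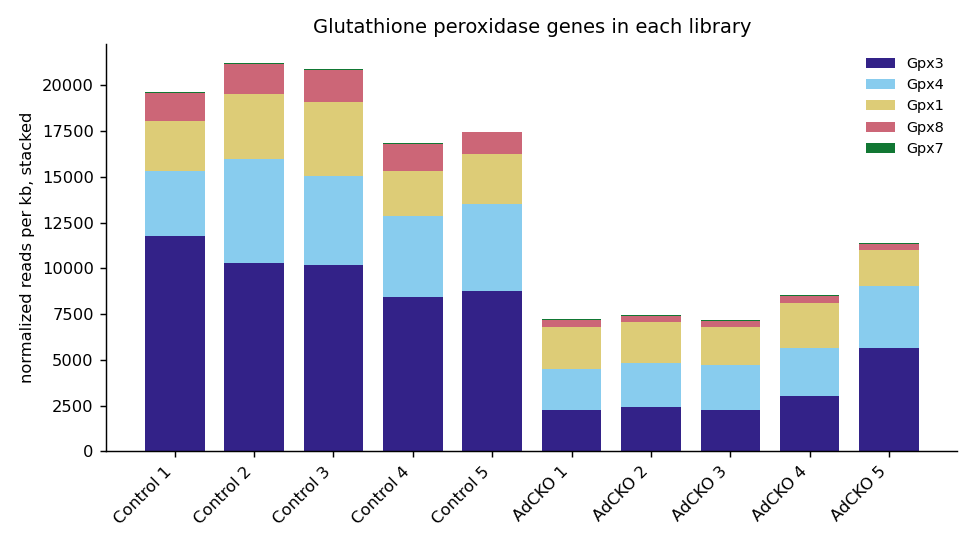
Normalized reads per kb of the 5 glutathione peroxidase genes, stacked for each of the 5 Control and 5 AdCKO libraries (x axis), where bar height is the sum over the genes. Sums are 16835 to 21196 in Control libraries and 7196 to 11410.1 in AdCKO libraries, with AdCKO replicate 5 the highest of its group through Gpx3.

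The glutathione S-transferases conjugate glutathione to electrophiles, and of 12 genes 2 rose, 6 fell and 4 were not called. Of all tested genes 25.6% were higher and 28.0% lower. Gsta3 (NM_001077353, chr1:21230666-21255656, plus strand), an alpha-class transferase, stood at 20.2, 33.5, 58.6, 25.1 and 22.6 in Control and 96.6, 126, 83.04, 146 and 82.5 in AdCKO. It rose 3.34-fold, more than any other of the 40 genes, although Control replicate 3 was high (log2 fold change 1.78 with SE 0.26 and limma adjusted p = 7.39e-05). Gsto1 (NM_010362, chr19:47929479-47939278, plus strand), an omega-class transferase that also reduces dehydroascorbate, stood at 801, 918, 862, 822 and 898 in Control and 1454, 1561, 1670.1, 1377 and 1309 in AdCKO. The groups were well apart (log2 fold change 0.77 with SE 0.08 and limma adjusted p = 3.91e-06), and its share of the summed family level was 7.39% ± 0.719 in Control and 18.2% ± 3.00 in AdCKO. Its gene overlaps Wdr96 on the other strand with no shared exon base.

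Gsta4 (NM_010357, chr9:78039773-78057156, plus strand), which conjugates reactive aldehydes from lipid peroxidation, stood at 453, 549, 635, 444 and 481 in Control and 197, 186, 214, 207 and 226 in AdCKO. It fell to 40.2% of Control, opposite to its relative Gsta3 (log2 fold change -1.30 with SE 0.10 and limma adjusted p = 4e-07). Gstk1, the kappa-class transferase of mitochondria and peroxisomes, stood at 305, 354, 361, 298 and 349.6 in Control and 149.6, 159, 139.9, 158 and 143 in AdCKO. It fell to 44.97% of Control with no overlap (log2 fold change -1.14 with SE 0.074 and limma adjusted p = 1.03e-07). Gstz1, an enzyme of tyrosine breakdown, went from 1802 ± 406 in Control to 829 ± 196 in AdCKO with wide spread but no overlap (log2 fold change -1.12 with SE 0.19 and limma adjusted p = 0.000193). It shares 127 exon bases with Pomt2 on the other strand.

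The mu class was split. Gstm5 went from 298 ± 33.5 in Control to 158 ± 29.1 in AdCKO (log2 fold change -0.92 with SE 0.12 and limma adjusted p = 3.72e-05). Gstm1 went from 872 ± 125 in Control to 620.0 ± 69.3 in AdCKO, and its decrease (log2 fold change -0.49 with SE 0.11 and limma adjusted p = 0.00152) was not called with the same total or quantile normalization, at log2 fold changes of -0.0067 and -0.28. Gstm2 averaged 211 ± 30.6 in Control and 197 ± 15.1 in AdCKO with overlap and was not called, but it was called higher with the same total in every library (log2 fold change 0.39). At that scaling the median of all genes was 0.46, above the value of Gstm2, and 60.6% of all tested genes were called higher. Gstm1 shares 10.9% of its 40-base stretches with Gstm3, so some reads may be split between them. Mgst1, a membrane-bound transferase and the most abundant of the family, went from 5583 ± 441 in Control to 3405 ± 459 in AdCKO (log2 fold change -0.72 with SE 0.11 and limma adjusted p = 8.5e-05), but its log2 fold change was 0.04 under quantile normalization and -0.24, not called, with the same total in every library. Its relative Mgst3 averaged 427 ± 48.6 in Control and 342 ± 64.4 in AdCKO and was not called. Neither were Gstp1 (647 ± 43.1 and 576 ± 30.1) and Gstt1 (129.9 ± 26.04 and 123 ± 15.7), transferases of the pi and theta classes. Gstp1 was called higher with the same total in every library (log2 fold change 0.32), again below the median of all genes at that scaling (0.46). It shares 70.2% of its 40-base stretches with Gstp2, so its level is uncertain.

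Among the remaining peroxiredoxins, Prdx6 (NM_007453, chr1:163170243-163181297, minus strand), a cytosolic enzyme that also acts on phospholipids, stood at 820.4, 834, 822, 828 and 884 in Control and 1200.5, 1326, 1339, 1085 and 1019 in AdCKO. It rose 1.42-fold with no overlap (log2 fold change 0.50 with SE 0.084 and limma adjusted p = 0.000204). Prdx2 (NM_011563, chr8:87493547-87498212, plus strand), a cytosolic relative of Prdx1, stood at 1157, 1296, 1186, 1162 and 1148 in Control and 724, 829, 897, 823 and 877 in AdCKO. It fell with no overlap (log2 fold change -0.52 with SE 0.073 and limma adjusted p = 5.02e-05), but did not pass with the same total or quantile normalization, at -0.04 and -0.22, and it shares 177 exon bases with Rnaseh2a on the other strand. Within the summed level of the 5 peroxiredoxins and Srxn1, Prdx5 was 32.1% ± 2.13 in Control and 21.3% ± 2.23 in AdCKO. Prdx1 was 18.2% ± 0.891 in Control and 28.4% ± 2.63 in AdCKO, so the most abundant member changed from Prdx5 to Prdx1.

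Sod1 (NM_011434, chr16:90220987-90226569, plus strand), the cytosolic copper-zinc superoxide dismutase, stood at 3689.7, 4926, 4595, 4699.7 and 4377 in Control and 2598, 2697, 2361, 2691 and 3067 in AdCKO. It fell with no overlap (log2 fold change -0.73 with SE 0.10 and limma adjusted p = 3.73e-05), and at -0.25 and -0.087 under the other scalings it did not pass. Sod3 (NM_011435, chr5:52755043-52760977, plus strand), the extracellular dismutase, stood at 1704, 1877, 1536, 1478 and 1380.1 in Control and 1384, 1534, 1419, 1549.6 and 1754 in AdCKO. The groups overlapped and it was not called (log2 fold change -0.058 with SE 0.10 and limma adjusted p = 0.619). It was called higher with the same total (0.42) and with quantile normalization (0.39). The median of all genes was 0.46 and -0.08 under these scalings, so Sod3 lay below it in the first and above it in the second. Of all tested genes, 60.6% and 22.5% were called higher. Cat, the peroxisomal catalase, stood at 3856, 3689.9, 3289.5, 3619 and 3412 in Control and 2245, 2594, 2321, 2426 and 3244 in AdCKO. AdCKO replicate 5 was just below the lowest Control library. It fell (log2 fold change -0.49 with SE 0.10 and limma adjusted p = 0.00125), but its log2 fold change was 0.11 under quantile normalization, and the call was also lost at equal library totals and without the 3 libraries holding muscle RNA. Glrx2, the mitochondrial glutaredoxin, went from 67.7 ± 4.34 in Control to 41.9 ± 2.23 in AdCKO with no overlap (log2 fold change -0.68 with SE 0.069 and limma adjusted p = 3.34e-06), and with the same total in every library its log2 fold change of -0.21 did not pass. Glrx averaged 94.01 ± 6.40 and 103 ± 14.3 and was not called, although it was called higher with the same total in every library (log2 fold change 0.61, limma adjusted p = 9.09e-05). At that scaling the median of all genes was 0.46, and 60.6% of all tested genes were called higher.

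In order of level, Gpx3, Mgst1, Gpx4, Sod1 and Cat led in Control, with means from 9888 down to 3573. In AdCKO the same 5 genes led in another order, with Mgst1 at 3405, Gpx3 at 3119.6, Sod1 at 2683, Gpx4 at 2635 and Cat at 2566. Each of these AdCKO means differed from the next by less than the larger of the 2 SDs. AdCKO replicate 5 held the highest AdCKO value for 11 of the 19 genes that fell and the lowest for 5 of the 9 that rose. It also had the highest brown adipocyte marker sum of AdCKO (34479.8) and the lowest macrophage (6315) and fibroblast (3739.8) sums, and the part of this in the gene values was not tested. Leaving out AdCKO replicates 1, 2 and 4, an alternative added after seeing the data, gave 7 genes higher and 17 lower, against 18.8% and 19.7% of all genes tested, with 3 of 8 NRF2-inducible genes higher and 4 of 5 mitochondrial genes lower.

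Other genes of the pathway were followed as lists. The counts of each list stand against 25.6% of all tested genes higher and 28.0% lower. Of 18 further NRF2 target genes, 8 rose and 6 fell, with a median log2 fold change of 0.16. Those with the smallest p were Sqstm1, an autophagy adaptor that also binds KEAP1 (log2 fold change 1.28, limma adjusted p = 1.98e-08), Tkt and Taldo1 of the pentose phosphate pathway (-2.35 and -1.41), and Slc7a11, the cystine carrier that feeds glutathione synthesis (1.28). Hmox1, haem oxygenase, was named after its value was seen and averaged 117 ± 43.6 in Control and 539 ± 110.2 in AdCKO (log2 fold change 2.24, limma adjusted p = 2.45e-06). The 6 that fell, also named after their values were seen, were Tkt, Taldo1, G6pdx, Pgd, Me1 and Idh1, which are known for the pentose phosphate pathway and for NADPH supply, with log2 fold changes from -2.35 to -0.60.

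Of 14 further genes of the glutathione cycle that were tested among 16 listed, 6 rose and 6 fell. Chac1, which breaks down glutathione, rose from 10.5 to 39.2 on average (log2 fold change 1.78, limma adjusted p = 7.28e-07), and Hagh, which releases glutathione in methylglyoxal removal, fell (log2 fold change -0.86, limma adjusted p = 9.54e-07). Of 11 genes for mitochondrial NADPH and redox supply, 3 rose and 4 fell. Mthfd2, a mitochondrial folate enzyme, averaged 16.7 ± 1.60 in Control and 191 ± 29.2 in AdCKO (log2 fold change 3.43, limma adjusted p = 5.8e-10). Nadk2, the mitochondrial NAD kinase that makes NADP, fell (log2 fold change -1.32, limma adjusted p = 3.07e-08), as did Msrb2, a mitochondrial methionine sulfoxide reductase (log2 fold change -1.62, limma adjusted p = 3.6e-07).

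Of 13 other genes for thioredoxin-fold proteins and repair, 4 rose and 4 fell, and of 13 genes for selenoprotein synthesis and other selenoproteins, 4 rose and 4 fell. Both lists lay near the shares of all tested genes, 25.6% higher and 28.0% lower. With the same total in every library 8 of the thioredoxin-fold genes were higher, and the counts higher and lower became 9 and 1 for the selenoprotein list, 7 and 1 for the glutathione cycle and 6 and 3 for mitochondrial NADPH. At that scaling 60.6% of all tested genes were higher and 9.77% lower, so the shares higher in the thioredoxin-fold and selenoprotein lists lay near that of all genes. Several glutathione peroxidases and the thioredoxin reductases are selenoproteins. In the selenoprotein list the smallest p belonged to Sepn1, a selenoprotein of the endoplasmic reticulum, which rose (log2 fold change 1.40, limma adjusted p = 4.47e-07). Sephs2, which makes the selenium donor, fell (log2 fold change -1.07, limma adjusted p = 9.26e-06), as did Pstk of the same route (log2 fold change -0.68, limma adjusted p = 5.74e-05), while Selm, another selenoprotein, rose (log2 fold change 0.65, limma adjusted p = 0.000163). All 6 tested genes of 8 listed for NADPH oxidases, the phagocyte source of superoxide, rose, with a median log2 fold change of 2.54. Cybb, its catalytic subunit, averaged 13.1 ± 4.94 in Control and 102 ± 22.6 in AdCKO, and these genes moved with the macrophage markers given above. Their relation to macrophage content was not tested.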

How the data were processed

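iBAT RNA was measured in 5 Control and 5 AdCKO libraries, grouped by the genotype in the labels, with 1 library per mouse. Polyadenylated RNA was prepared with a TruSeq kit, and strand is not stated. Per the labels and methods, the authors aligned the reads with STAR (mm9), counted those on exons, applied DESeq2 normalization and divided by exon length. The deposited values are thus a signal in normalized reads per kb, for 15075 genes with 1 RefSeq transcript each, and not counts. Between 19.2% and 20.6% of low values in a library lay within 0.1 of a whole read (20% by chance), so depth is unknown, no counting error is given, and precision is the spread between mice. The fold changes, p-values and gene lists of the authors' own comparison were not used.

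A pseudocount of 1 was added before log2, which understates changes of low genes, and genes whose mean reached 10 in either group, 11244 in all, went into limma 3.58.1 (R 4.3.3, two-sided, with an intensity trend). P-values were adjusted by Benjamini-Hochberg over these genes, at a threshold of 0.01. The study used DESeq2 on counts, which these values do not allow. On simulated data with 200 of 11244 genes changed by a log2 of 1, 174 (87%) were recovered and 4 other genes were called. In the real data 25.6% of genes were called higher and 28.0% lower, and library totals differed between the groups. The simulated rates therefore check the step and do not give the error rate of the real calls. Ratios of gene pairs were tested by exact permutation of the libraries, two-sided, at 0.05. Figures used matplotlib 3.10.9 in Python 3.11.15. File starts were counted from 0 and are printed from 1. The members and lists were chosen with earlier results of these data known. All 40 members may be named, and of each other list at most 4 genes with the smallest p and called genes that go against it, with exceptions stated. Alternatives covered the pseudocount, the filter, the scaling, limma's trend, the threshold, the replicate number as a block and leaving out each library. An overlap of 1 member with another gene is not reported here.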

Additional observations from a re-analysis of the deposited data

Results flagged for a closer look

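In 4 of the 80 groups of 5 values (40 genes in 2 genotypes), 1 library stood apart from the other 4 by Dixon's gap test, whose critical value for 5 samples is 0.71. Chance gives about 1 in 20 groups. Gpx3 in AdCKO replicate 5 was 5647, against 2245 to 3021 in the other AdCKO libraries. Keap1 in AdCKO replicate 3 was 121, against 155 to 159 in the others. Prdx2 in Control replicate 2 was 1296, against 1148 to 1186 in the others. Prdx6 in Control replicate 5 was 884, against 820.4 to 834 in the others. Each of these genes passed the limma test with and without the library named.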

How the results depend on the processing

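Of the 28 called genes, 7 that rose and 10 that fell kept direction and call under all 21 alternatives. With the same total in every library 17 members were higher and 10 lower, and 7 NRF2-inducible members were higher, where 60.6% of all tested genes were higher and 9.77% lower. That scaling turned the sign of Gclm (0.39), Gsr (0.42), Gpx1 (0.0028), Gstm2 (0.39), Gstp1 (0.32), Gstt1 (0.42), Mgst3 (0.14), Txn1 (0.24), Txn2 (0.22) and Sod3 (0.42, all log2 fold changes), which its shift of all genes to 0.46 contains. Over all genes it made 86.1% of calls higher, and quantile normalization 41.9%, against 47.7%. Quantile normalization gave 12 members lower and turned the sign of Gpx1 (0.039), Gstm2 (0.0075), Gstp1 (0.045), Mgst1 (0.035), Txn2 (0.22), Sod3 (0.39) and Cat (0.11), and the cause was not tested. The wider NRF2-inducible list had 2 lower genes, Gsta4 and Gstm1, which it adds.

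Leaving out 1 library gave log2 differences of 0.22 to 0.34 for Sod1/Sod2, whose call was lost for 7 of the 10 libraries. It gave -0.060 to 0.10 for Txn1/Txn2 and log2 fold changes of -0.034 to 0.083 for Nfe2l2, -0.14 to 0.030 for Gstt1 and -0.11 to 0.0025 for Sod3, and these 4 were not called in any of those 10 cases. It gave 7 to 9 members higher and 18 to 19 lower. Without the 3 libraries holding skeletal muscle RNA, an alternative added after seeing the data, Sod1/Sod2 was 0.11, Txn1/Txn2 -0.22 and Glrx -0.030, and Gss, Prdx1, Gpx1, Gpx4 and Cat lost their calls with fewer samples.

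The replicate numbers did not pair the mice: deviations of same-numbered libraries correlated at -0.27 to 0.10, and 1 of 10 libraries correlated best with its own number. With the replicate number as a block, 8 members were higher and 18 lower, Prdx1 and Gpx1 losing the call. The ratio differences stayed at 0.27 (Sod1/Sod2), 1.15 (Prdx1/Prdx3), 1.38 (Prdx6/Prdx5), 1.62 (Txnrd1/Txnrd2) and 0.82 (Glrx/Glrx2). Their paired exact permutation p was 0.125 for Sod1/Sod2 and 0.0625 for the other 4, the smallest 5 pairs allow.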
